A study of Mus musculus with 12 samples.

Results

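The genes of blood clotting, fibrinolysis and complement were followed in the adrenal glands of male C57Bl/6J mice. The list held 43 genes, chosen by name, and a gene was measured where a probe set of the array carried that symbol alone. Of the 43 genes, 38 had such a probe set, and all 38 passed the filter on dim genes, among 15900 genes tested in all. F9, F11, Cpb2, C3 and Klkb1 had no probe set of their own and were not analysed here. By their main known source the 38 genes fell into 26 liver-made genes (17 of clotting and fibrinolysis and 9 of complement), 5 with several sources, 4 of the vessel wall and 3 of macrophages.

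The 4 groups of mice, all 21 weeks old at death, were as follows. ASP mice were exposed to aspartame, a sweetener, at 46 mg per kg of body weight in the drinking water, from the womb onwards. CGP mice were exposed through their mothers to CGP 39551, which blocks the NMDA type of glutamate receptor (NMDAR). The mothers drank it at 5 mg per kg of their own body weight from mating until the pups were weaned, after which these pups had plain water. ASP+CGP mice had both exposures, and CON mice neither. RNA of the mice of a group was mixed in equal amounts, and this 1 pool was read on 3 Affymetrix Mouse Gene ST arrays, giving 12 arrays. The 3 arrays of a group are therefore repeats of 1 RNA pool. The p-values below reflect how much such repeats differed and say nothing of the spread between mice.

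Clotting is a cascade of proteases that ends in thrombin, which cuts fibrinogen into fibrin, and fibrinolysis is its counterpart, in which plasmin digests the clot. Complement is a related plasma cascade that tags microbes and ends in a membrane pore. Hepatocytes make most of these proteins and release them into plasma, whereas tissue factor, thrombomodulin, von Willebrand factor and tissue plasminogen activator belong to the vessel wall, and macrophages make the C1q chains. The adrenal gland is not a known main source of the liver-made factors.

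The values are log2 signals, on which a difference of 1 is a factor of 2. A gene was called higher or lower in a comparison at a limma adjusted p under 0.05 (Benjamini-Hochberg, over all genes tested) together with a change of at least 1.4-fold. F13b, a subunit of factor XIII, and Mbl1, a mannose-binding lectin, passed the filter only through their CGP mean, since their means in the other pools were under the filter level of 6. The complement regulator Cfi was under 6 in the ASP and ASP+CGP pools. The array medians lay between 7.84 and 7.94, and arrays of a pool correlated at 0.989 to 0.995. Signals spread less widely on the ASP+CGP arrays (interquartile range 2.20 to 2.29, against 2.58 to 2.62 in CON). Adrenal identity was clear in all pools. Star and Cyp11a1, of steroid synthesis, averaged between 13.41 and 13.64, and Th, of catecholamine synthesis, between 12.97 and 13.39. Albumin (Alb), the defining hepatocyte product, was also bright, with means of 12.68 in ASP, 13.64 in CGP, 12.42 in ASP+CGP and 13.15 in CON. For 5 chromaffin markers the median difference from CON was -0.38 in ASP, -0.07 in CGP and -0.10 in ASP+CGP. For 8 adrenal cortex markers it was -0.16, -0.02 and -0.04.

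The upstream promoters of 5 members are shown because they set the liver-made genes beside the vessel-wall gene that moved the other way. Fga, Fgb and Fgg, the 3 fibrinogen chains, lie next to each other on chromosome 3. Vtn encodes vitronectin, a plasma adhesion protein, and F3 encodes tissue factor, the cell-surface starter of clotting. Each line gives the 250 bases before the annotated start, from RefSeq on GRCm38.p6, 5′ to 3′ along the gene. Capitals mark the matches found on either strand to GTTAAT (part of the palindromic site of the liver factor HNF1), TTGCNNAA (a C/EBP-type site) and GGGCGG (the GC box).

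Fga promoter, chr3:83025903-83026152, plus strand: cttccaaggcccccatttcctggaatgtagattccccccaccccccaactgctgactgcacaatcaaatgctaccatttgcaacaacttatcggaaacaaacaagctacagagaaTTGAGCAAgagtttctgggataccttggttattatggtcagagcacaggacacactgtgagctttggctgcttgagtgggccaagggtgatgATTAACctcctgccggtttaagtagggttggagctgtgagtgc
Fgb promoter, chr3:83049864-83050113, minus strand: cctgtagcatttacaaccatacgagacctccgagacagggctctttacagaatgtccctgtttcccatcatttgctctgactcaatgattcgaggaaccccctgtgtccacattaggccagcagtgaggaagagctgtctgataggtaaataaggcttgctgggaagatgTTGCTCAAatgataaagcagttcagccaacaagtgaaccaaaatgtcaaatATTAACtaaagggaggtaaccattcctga
Fgg promoter, chr3:83007474-83007723, plus strand: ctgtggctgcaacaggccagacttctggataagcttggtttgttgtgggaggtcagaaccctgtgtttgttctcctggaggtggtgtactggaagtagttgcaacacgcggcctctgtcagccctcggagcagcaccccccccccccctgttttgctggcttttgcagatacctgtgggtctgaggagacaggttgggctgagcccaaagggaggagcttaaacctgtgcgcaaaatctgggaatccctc
Vtn promoter, chr11:78498870-78499119, plus strand: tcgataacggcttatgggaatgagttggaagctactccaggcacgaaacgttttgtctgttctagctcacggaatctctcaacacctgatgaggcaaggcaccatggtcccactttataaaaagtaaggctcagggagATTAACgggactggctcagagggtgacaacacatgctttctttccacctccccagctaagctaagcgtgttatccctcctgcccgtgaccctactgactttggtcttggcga
F3 promoter, chr3:121723287-121723536, plus strand: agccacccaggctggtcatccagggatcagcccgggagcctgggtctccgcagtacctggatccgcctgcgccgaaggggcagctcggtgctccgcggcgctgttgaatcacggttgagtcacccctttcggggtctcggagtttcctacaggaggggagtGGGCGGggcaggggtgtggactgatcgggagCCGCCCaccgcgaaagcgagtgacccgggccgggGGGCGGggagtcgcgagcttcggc

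Of the 38 measured members, 26 had a promoter window, 22 of them liver-made. GTTAAT occurred for 6 of these 22 liver-made genes (27.3%), F13b, Fga, Fgb, Vtn, C8a and C8b, and for 7.49% of all genes with a window. TTGCNNAA occurred in Fga, Fgb, Hrg and C9 (18.2%, against 10.8% of all genes). The Fgg window held neither, although Fgg fell most of the 3 chains in both aspartame pools. GGGCGG occurred for 1 of the 22 liver-made genes (4.55%, F5), for 35.4% of all genes with a window, and 3 times in the window of F3. It also occurred in the windows of C1qc and Pros1, neither of which was called higher in ASP. The F3 window was 70% G and C, against 44.8% to 56.8% in the other 4 printed. None of the matches overlapped another. These matches are descriptions of the letters and were not tested as binding sites.

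The first question was what chronic aspartame alone did. In the ASP pool the liver-made genes fell together and tissue factor rose. Of the 26 liver-made genes, 20 were called lower, by 1.41- to 2.86-fold on the signals as measured, and none was called higher. The 20 include Mbl1, which passed the filter only through its CGP mean. Counting every class, 24 of 38 members were called lower, where 8.13% of all genes tested were, and 1 was called higher (F3), where 9.81% of all genes were. The median log2 difference of the liver-made genes was -0.84, beside -0.10 over all genes tested. In bulk RNA of this kind, fewer cells of a type and less RNA per cell cannot be told apart.

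The fibrinogen chains were among the genes that fell most. Fgg (probe set 10492735) had signals of 8.61, 8.69 and 8.58 in ASP, 10.85, 10.88 and 10.74 in CGP, 8.06, 8.25 and 8.25 in ASP+CGP, and 10.11, 10.20 and 10.12 in CON. The 4 pools did not overlap on any array, with CGP at the top and ASP+CGP at the bottom. In ASP, Fgg was 2.86-fold lower than in CON (-1.52 ± 0.07 on the log2 scale, SE, n = 3 arrays, adjusted p = 6.31e-11 by limma). Fgb had 8.93, 8.86 and 8.79 in ASP, 10.85, 10.81 and 10.78 in CGP, 8.29, 8.69 and 8.33 in ASP+CGP, and 10.06, 10.13 and 10.04 in CON. It kept the same order of pools, and fell by 1.22 ± 0.09 in ASP. Fga was dimmer, with 6.48, 6.56 and 6.56 in ASP, 8.30, 8.42 and 8.23 in CGP, 6.72, 6.57 and 6.71 in ASP+CGP, and 7.58, 7.61 and 7.59 in CON. In ASP it fell by 1.06 ± 0.06. Its ASP and ASP+CGP arrays lay below all CON arrays, and no ASP+CGP array was below the ASP arrays. A second, dimmer probe set of Fga differed from CON in the same directions (-0.34 in ASP, 0.39 in CGP and -0.09 in ASP+CGP).

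Hrg, the plasma histidine-rich glycoprotein, and Plg, the precursor of plasmin, completed the 4 lowest in ASP. Hrg had 7.56, 7.67 and 7.57 in ASP, 9.81, 9.75 and 9.76 in CGP, 6.70, 7.09 and 7.18 in ASP+CGP, and 8.92, 8.84 and 8.83 in CON. The ASP arrays were thus all below CON, by 1.27 ± 0.09 on average (2.40-fold lower, adjusted p = 3.48e-08). Plg fell by 1.11 ± 0.06 in ASP. The protease inhibitors Serpinc1 (antithrombin) and Serpinf2 (antiplasmin) fell by 0.95 ± 0.07 and 1.06 ± 0.06, and prothrombin (F2) fell by 0.89 ± 0.08. Genes that promote clotting and genes that restrain it therefore moved the same way. Among complement genes, Masp2, a protease of the lectin pathway, fell by 1.05 ± 0.07, and C8b and C8g, which code for subunits of the membrane pore, each fell by 0.98 (SE 0.08 for C8b and 0.06 for C8g). Cfi was at least 1.50-fold lower in ASP. Mbl1 had 5.33, 5.32 and 5.50 in ASP, 6.91, 6.68 and 6.29 in CGP, 5.72, 5.40 and 5.63 in ASP+CGP, and 5.81, 5.91 and 6.01 in CON. It was called lower in ASP, though not without CON replicate 3 (-0.48), and its means were under 6 in both ASP and CON, so no fold is given.

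6 liver-made genes were not called in ASP. Serpind1 (heparin cofactor II), Vtn, F13b and C8a differed by -0.40, -0.36, -0.35 and -0.33, short of the 1.4-fold minimum. Mbl2, a second mannose-binding lectin, differed by -0.27 ± 0.11 (adjusted p = 0.0527), and F7, the partner of tissue factor, by -0.13 ± 0.07 (adjusted p = 0.124). F7 and F10 are neighbours on chromosome 8, and F10 was called lower in ASP (-0.49 ± 0.09). F10 encodes factor X, which makes thrombin, and had 7.34, 7.14 and 7.31 in ASP, 8.26, 8.50 and 8.40 in CGP, 7.32, 7.33 and 7.43 in ASP+CGP, and 7.60, 7.72 and 7.95 in CON. Its ASP and ASP+CGP arrays all lay below CON and its CGP arrays all above. The F10 call was lost when CON replicate 3 was left out (-0.40), when ASP replicate 2 was left out (-0.43), and when the arrays were centred on their medians (-0.47) or scaled by cyclic loess (-0.37).

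**Figure D1:**
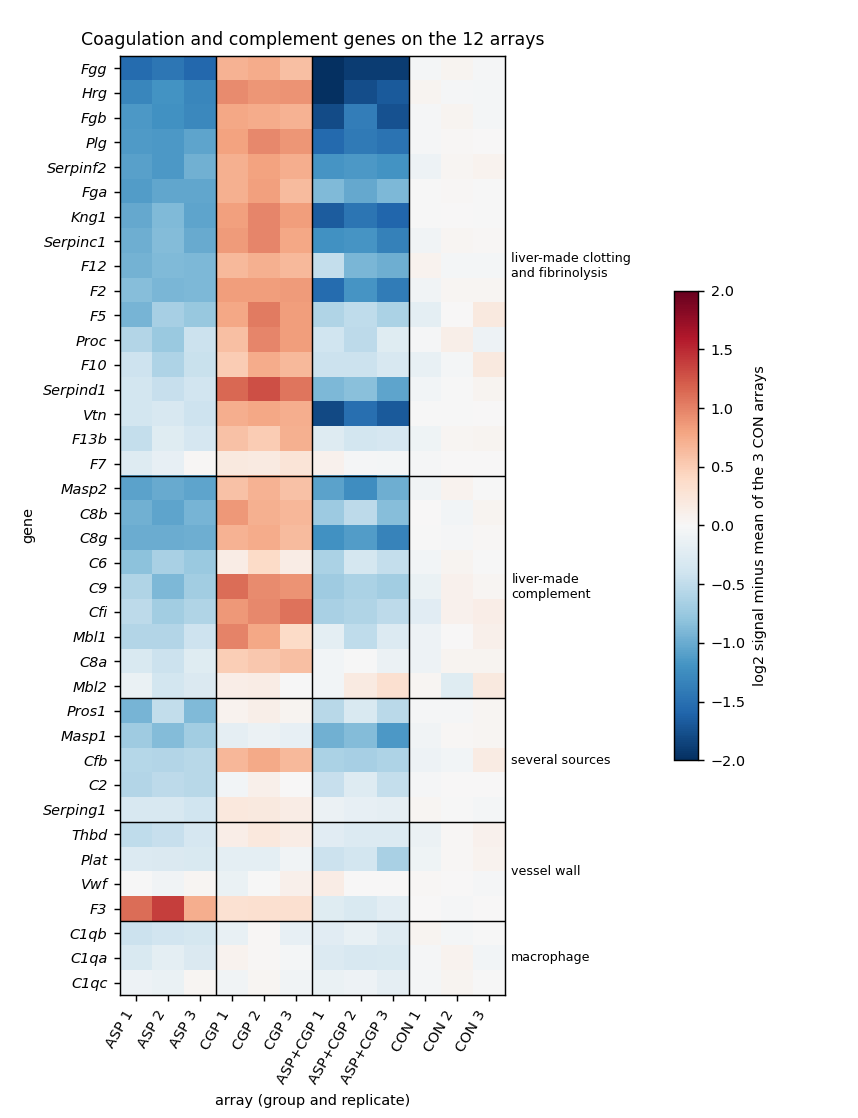
Heat map of the 38 genes (rows, grouped by class of source) on the 12 arrays (columns), coloured by log2 signal minus the mean of the 3 CON arrays. Most liver-made rows are blue in ASP and ASP+CGP and red in CGP, with F7, Mbl2 and C8a near or above CON in ASP+CGP, whereas the vessel-wall and macrophage rows stay pale except F3 in ASP.

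F3 moved against the rest. Its signals were 8.74, 9.004 and 8.35 in ASP, 7.94, 7.95 and 7.94 in CGP, 7.39, 7.32 and 7.41 in ASP+CGP, and 7.64, 7.61 and 7.63 in CON. The 3 ASP arrays were above all others, although they differed among themselves more than the arrays of any other pool (SD 0.33, against 0.01, 0.05 and 0.02). F3 was 2.10-fold higher in ASP than in CON (1.07 ± 0.11, adjusted p = 1.54e-06), and the difference lay between 0.92 and 1.25 in every alternative tried. Neuron, oligodendrocyte and most astrocyte markers moved with it. In ASP, 3 of 4 astrocyte markers, 6 of 6 neuron markers and 4 of 4 oligodendrocyte markers were called higher, with median differences of 1.73, 2.36 and 3.51. Of 5 microglia markers, 2 were called higher, with a median of 0.31 and a range from -0.30 to 0.74. Over all genes tested, 9.81% were called higher in ASP. The log2 summed signal of the astrocyte markers ranged from 11.58 to 11.64 in ASP, 10.55 to 10.63 in CGP, 9.83 to 9.94 in ASP+CGP and 10.32 to 10.40 in CON. Outside ASP that sum was mostly the signal of Aldh1l1, the 1 astrocyte marker not called higher in ASP, which averaged 9.60 in ASP, 10.19 in CGP, 9.33 in ASP+CGP and 10.01 in CON. The astrocyte marker Gfap averaged 8.61 in ASP, 6.37 in CGP, 6.63 in ASP+CGP and 6.49 in CON. Tissue factor is known to be made by astrocytes as well as around vessels. The part of these cells in the F3 difference was not tested.

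The other 3 vessel-wall genes were not called in ASP. Vwf, the platelet-binding protein of endothelium, had 7.93, 7.88 and 7.99 in ASP, 7.81, 7.94 and 8.05 in CGP, 8.08, 7.96 and 7.96 in ASP+CGP, and 7.96, 7.95 and 7.91 in CON. Its pools overlapped throughout, and its differences from CON were -0.01, -0.01 and 0.06 (SE 0.07 each) in ASP, CGP and ASP+CGP. Thbd, which encodes thrombomodulin, had 8.78, 8.82 and 8.96 in ASP, 9.41, 9.50 and 9.43 in CGP, 9.06, 9.02 and 9.01 in ASP+CGP, and 9.18, 9.31 and 9.37 in CON. The ASP arrays lay below all CON arrays (-0.43 ± 0.07, adjusted p = 5.39e-05), short of the 1.4-fold minimum, which they passed without CON replicate 1 (-0.49). Plat, tissue plasminogen activator, had 8.82, 8.80 and 8.79 in ASP, 8.90, 8.90 and 9.02 in CGP, 8.66, 8.73 and 8.45 in ASP+CGP, and 8.999, 9.12 and 9.16 in CON. It differed by -0.29 ± 0.07 in ASP and by -0.48 ± 0.07 in ASP+CGP. Of the vessel-wall genes it was thus the one nearest to a call in ASP+CGP, at 1.39-fold lower, and it passed the minimum without CON replicate 1 (-0.53), ASP+CGP replicate 1 (-0.50) or ASP+CGP replicate 2 (-0.54).

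C1qa, C1qb and C1qc, the adjacent genes on chromosome 4 that code for the recognition molecule of the classical complement pathway, were not called in any comparison. C1qa had 9.56, 9.68 and 9.57 in ASP, 9.94, 9.89 and 9.82 in CGP, 9.59, 9.54 and 9.56 in ASP+CGP, and 9.85, 9.94 and 9.81 in CON. C1qb had 10.87, 10.91 and 10.94 in ASP, 11.14, 11.32 and 11.13 in CGP, 11.07, 11.15 and 11.04 in ASP+CGP, and 11.34, 11.25 and 11.29 in CON. For both genes the ASP and ASP+CGP arrays were all below CON, by 0.21 to 0.39 on average. C1qc had 10.35, 10.32 and 10.49 in ASP, 10.39, 10.49 and 10.39 in CGP, 10.32, 10.35 and 10.28 in ASP+CGP, and 10.42, 10.50 and 10.45 in CON. Its ASP arrays overlapped CON (-0.07 ± 0.06, adjusted p = 0.383). Over the 7 vessel-wall and macrophage genes, 0 were called lower in ASP by limma, where 8.13% of all genes tested were, so that 0 of 7 is near the share of all genes. A negative difference was found in 4 at an unadjusted p under 0.05. The number was also 4 at an adjusted p under 0.05, and these differences were short of the 1.4-fold minimum. The median of the 7 genes was -0.27 in ASP, -0.01 in CGP and -0.26 in ASP+CGP.

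**Figure D2:**
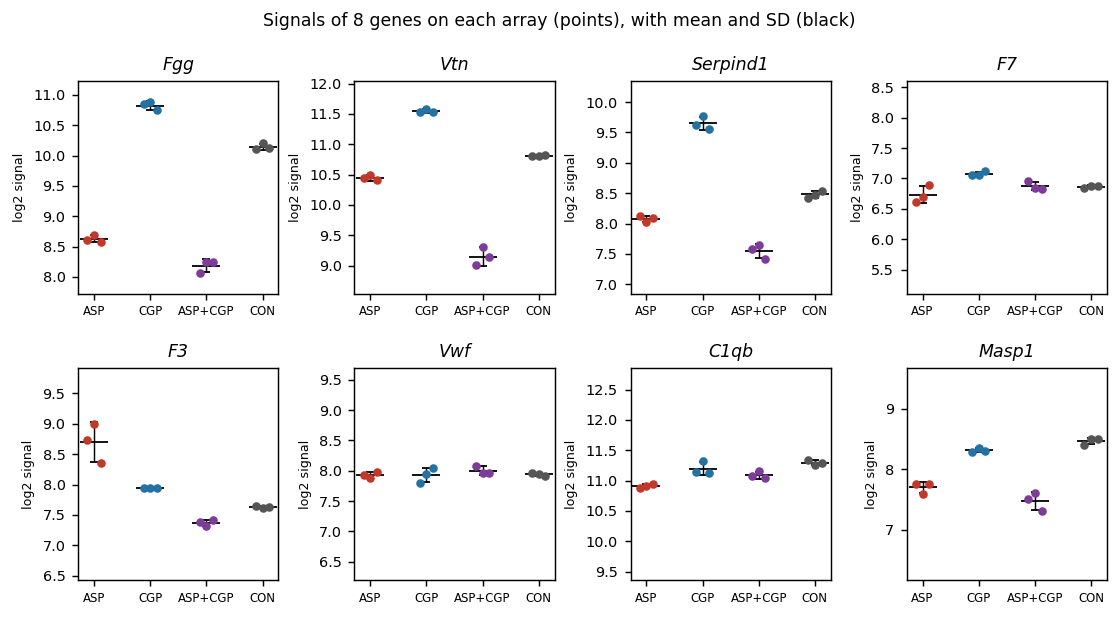
Log2 signal of 8 genes on each array (points, 3 per pool), with the mean and SD of the pool in black. Every panel spans the same range of log2 units, and the panels show Fgg, Vtn and Serpind1 separating by pool, F3 high in ASP, and F7, Vwf and C1qb close together.

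The 5 genes with several sources, which hepatocytes make along with other cells, had mixed patterns. Pros1, which encodes the anticoagulant protein S, had 8.22, 8.65 and 8.27 in ASP, 9.22, 9.26 and 9.21 in CGP, 8.59, 8.85 and 8.61 in ASP+CGP, and 9.12, 9.13 and 9.20 in CON. It fell by 0.77 ± 0.10 in ASP and differed by only 0.08 ± 0.10 in CGP. C2, a complement protease, had 9.40, 9.47 and 9.44 in ASP, 9.95, 10.10 and 10.004 in CGP, 9.54, 9.75 and 9.53 in ASP+CGP, and 9.98, 10.004 and 10.01 in CON. It fell by 0.56 ± 0.07 in ASP, a call lost under cyclic loess (-0.39), and its CGP arrays overlapped CON. Cfb, which encodes factor B of the alternative pathway and neighbours C2 on chromosome 17, had 8.07, 8.06 and 8.08 in ASP, 9.30, 9.40 and 9.28 in CGP, 8.01, 7.97 and 8.01 in ASP+CGP, and 8.54, 8.59 and 8.80 in CON. Alone in this class it was called higher in CGP (0.69 ± 0.07), as the liver-made genes were, and it fell by 0.57 ± 0.07 in ASP and 0.64 ± 0.07 in ASP+CGP. Under cyclic loess the Cfb calls were lost in ASP (-0.40) and in ASP+CGP (-0.40).

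Masp1, a protease of the lectin pathway, had 7.75, 7.60 and 7.76 in ASP, 8.29, 8.35 and 8.30 in CGP, 7.51, 7.60 and 7.32 in ASP+CGP, and 8.40, 8.49 and 8.50 in CON. It fell by 0.76 ± 0.07 in ASP and 0.99 ± 0.07 in ASP+CGP, and differed by -0.15 ± 0.07 in CGP (adjusted p = 0.552). Masp1 and Masp2 therefore both fell with aspartame, and Masp2 alone was called higher in CGP (0.62 ± 0.07). Serping1, the C1 inhibitor, had 11.22, 11.22 and 11.14 in ASP, 11.74, 11.73 and 11.69 in CGP, 11.41, 11.38 and 11.36 in ASP+CGP, and 11.58, 11.54 and 11.50 in CON. Its ASP arrays were below all CON arrays and its CGP arrays above them, but no difference reached 1.4-fold (-0.35 in ASP and 0.18 in CGP, SE 0.05 each).

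The second question was what blocking NMDARs during development left behind at 21 weeks. In the CGP pool the liver-made genes rose together. Of the 26, 23 were called higher, by 1.46- to 2.25-fold on the signals as measured, and with Cfb the count was 24 of 38 members, where 1.62% of all genes tested (257 genes) were called higher. The 23 include F13b and Mbl1, which passed the filter only through their CGP mean. With 6 in place of its CON mean, F13b was 1.32-fold higher, which is under the 1.4-fold minimum. No member was called lower, where 0.0189% of all genes were, and at an unadjusted p under 0.05 limma also gave 0 members lower. The median was 0.74 over the liver-made genes and 0.00 over all genes tested. At a mean of 6 over all 12 arrays as the filter, an alternative chosen after the data were seen, F13b and Mbl1 drop out and 22 members were called higher.

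Serpind1 rose most in CGP. It had 8.12, 8.03 and 8.10 in ASP, 9.62, 9.77 and 9.55 in CGP, 7.58, 7.64 and 7.42 in ASP+CGP, and 8.43, 8.48 and 8.54 in CON. The CGP arrays were more than 1 log2 unit above every other array, and the gene was 2.25-fold higher than in CON (1.17 ± 0.07, adjusted p = 1.72e-07). C9, the last component of the membrane pore, had 6.39, 6.11 and 6.30 in ASP, 8.11, 7.95 and 7.89 in CGP, 6.29, 6.36 and 6.30 in ASP+CGP, and 6.87, 7.08 and 7.04 in CON. It was 1.98-fold higher in CGP (0.99 ± 0.08, adjusted p = 2.22e-06), and its ASP and ASP+CGP arrays overlapped each other below CON. Cfi had 6.06, 5.89 and 5.99 in ASP, 7.46, 7.54 and 7.68 in CGP, 5.94, 5.98 and 6.06 in ASP+CGP, and 6.36, 6.67 and 6.72 in CON. It was 1.96-fold higher in CGP, again with all CGP arrays at the top.

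The rise in CGP spanned a narrower range over the 26 liver-made genes than the differences in the aspartame pools. It ran from 0.09 to 1.17, against -1.52 to -0.13 in ASP and -1.96 to 0.15 in ASP+CGP. The 23 called genes, which the 1.4-fold minimum bounds from below, lay between 0.55 (C8a) and 1.17. The fibrinogen chains were close to each other at 0.68 (Fgg), 0.72 (Fga) and 0.74 (Fgb), where in ASP they ranged from -1.52 to -1.06. The 3 smallest called rises were those of C8a, F13b and Masp2. C8a had 6.34, 6.22 and 6.40 in ASP, 7.14, 7.19 and 7.25 in CGP, 6.59, 6.64 and 6.53 in ASP+CGP, and 6.54, 6.70 and 6.70 in CON, so only its CGP arrays stood above CON. F13b had 5.32, 5.55 and 5.46 in ASP, 6.38, 6.30 and 6.51 in CGP, 5.54, 5.43 and 5.45 in ASP+CGP, and 5.70, 5.83 and 5.84 in CON. Masp2 had 7.33, 7.39 and 7.34 in ASP, 8.99, 9.09 and 8.99 in CGP, 7.34, 7.16 and 7.43 in ASP+CGP, and 8.34, 8.47 and 8.40 in CON, with both aspartame pools more than 0.9 below every CON array. F13b was at least 1.32-fold and Mbl1 at least 1.54-fold higher in CGP, with their CON means set to 6, and the Mbl1 call was lost without moderation (adjusted p = 0.0670 by limma). The 3 liver-made genes not called in CGP were F7 (0.21 ± 0.07), C6 (0.23 ± 0.08) and Mbl2 (0.09 ± 0.11). C6, a component of the membrane pore, had 7.22, 7.39 and 7.29 in ASP, 8.17, 8.42 and 8.19 in CGP, 7.41, 7.69 and 7.56 in ASP+CGP, and 7.98, 8.08 and 8.03 in CON. It was called lower in ASP (-0.74 ± 0.08) but not higher in CGP, unlike C8a, C8b, C8g and C9. Mbl2 had 7.28, 7.04 and 7.13 in ASP, 7.55, 7.56 and 7.40 in CGP, 7.37, 7.60 and 7.73 in ASP+CGP, and 7.46, 7.18 and 7.61 in CON. The CON arrays overlapped each of the other pools, while the ASP arrays lay below all CGP and ASP+CGP arrays. F7 had 6.61, 6.70 and 6.90 in ASP, 7.06, 7.05 and 7.12 in CGP, 6.96, 6.84 and 6.83 in ASP+CGP, and 6.85, 6.88 and 6.88 in CON, and only its CGP arrays stood clear of CON.

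Most of the other liver-made genes had CGP at the top, CON below it and both aspartame pools at the bottom. F12, the first protease of the contact pathway, had 7.61, 7.67 and 7.66 in ASP, 9.21, 9.27 and 9.22 in CGP, 8.08, 7.65 and 7.59 in ASP+CGP, and 8.64, 8.52 and 8.53 in CON, and fell by 0.91 ± 0.10 in ASP. F2 averaged 8.13 ± 0.04 in ASP, 9.86 ± 0.01 in CGP, 7.65 ± 0.18 in ASP+CGP and 9.02 ± 0.07 in CON (SD, n = 3 arrays). Plg averaged 8.69 ± 0.05 in ASP, 10.69 ± 0.08 in CGP, 8.32 ± 0.07 in ASP+CGP and 9.80 ± 0.03 in CON. In both genes ASP+CGP was lowest and CGP highest on every array. Serpinc1 averaged 8.43 ± 0.07 in ASP, 10.25 ± 0.10 in CGP, 8.13 ± 0.09 in ASP+CGP and 9.38 ± 0.06 in CON, and Serpinf2 8.27 ± 0.10 in ASP, 10.08 ± 0.05 in CGP, 8.16 ± 0.02 in ASP+CGP and 9.34 ± 0.09 in CON. C8g averaged 8.21 ± 0.01 in ASP, 9.89 ± 0.06 in CGP, 7.98 ± 0.11 in ASP+CGP and 9.20 ± 0.02 in CON. In F12, in C8b and in Proc, which encodes protein C, the ASP pool had the lowest mean instead. Over the 26 liver-made genes, ASP+CGP minus ASP was negative in 12 and positive in 14. C8b averaged 7.12 ± 0.07 in ASP, 8.85 ± 0.11 in CGP, 7.40 ± 0.16 in ASP+CGP and 8.10 ± 0.06 in CON, and Proc 7.35 ± 0.16 in ASP, 8.74 ± 0.19 in CGP, 7.54 ± 0.14 in ASP+CGP and 7.93 ± 0.11 in CON. The Proc call in ASP (-0.59 ± 0.10) was lost under cyclic loess (-0.45).

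**Figure D3:**
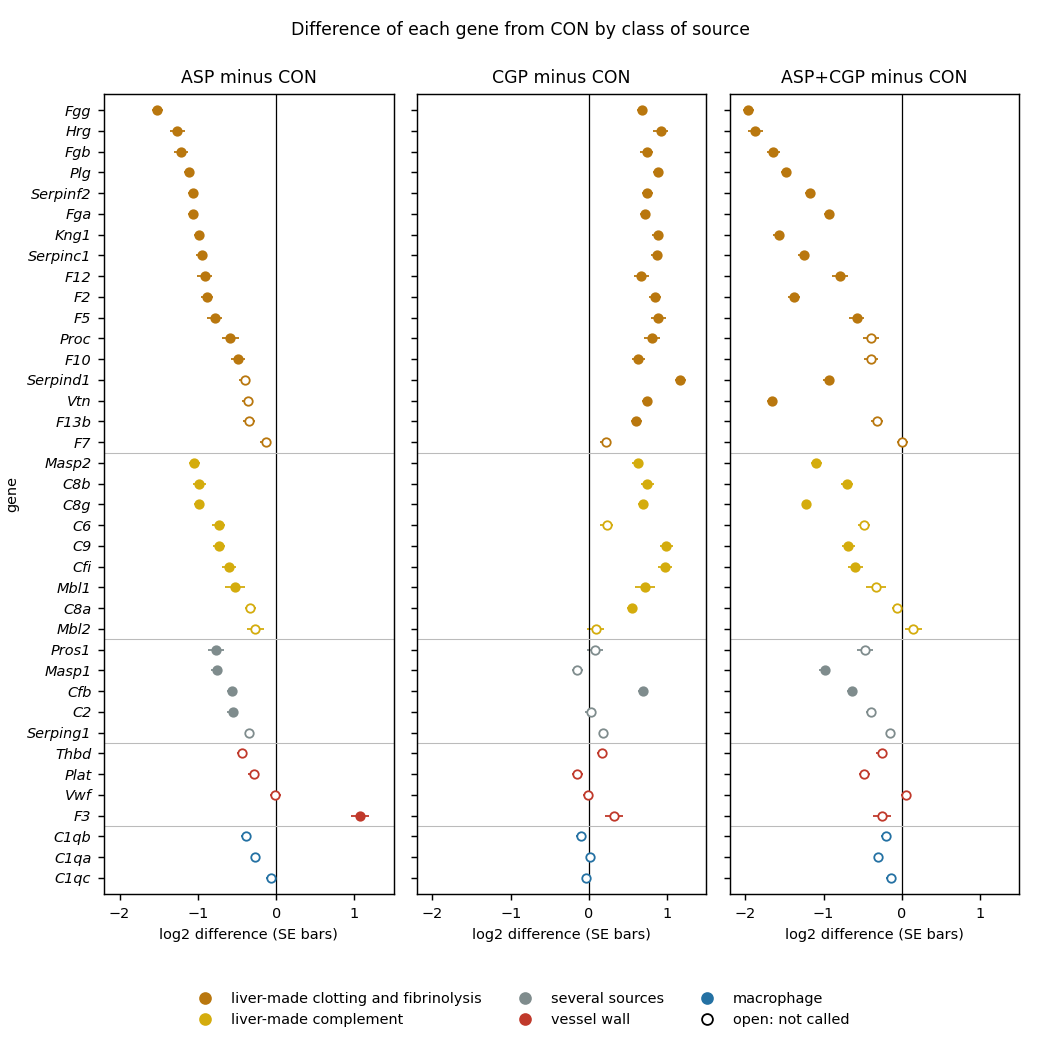
Log2 difference from CON of each gene in ASP, CGP and ASP+CGP, with SE bars. Filled points are called at an adjusted p under 0.05 and 1.4-fold and open points are not. All 26 liver-made genes lie left of 0 in ASP and right of it in CGP, 24 of the 26 lie left of 0 in ASP+CGP (all but F7 and Mbl2), and F3 is the 1 filled vessel-wall point.

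The third question concerned both treatments together. In the ASP+CGP pool the liver-made genes fell again, as in ASP. Of the 26 liver-made genes, 18 were called lower than in CON, by 1.49- to 3.89-fold, and with Masp1 and Cfb the count was 20 of 38 members, where 8.32% of all genes tested were called lower. limma called 0 members higher, where 6.09% of all genes were, and 0 had a positive difference at an unadjusted p under 0.05. The medians were -0.86 over the liver-made genes and -0.17 over all genes tested.

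The 3 lowest in ASP+CGP were Fgg, 3.89-fold below CON (-1.96 ± 0.07, adjusted p = 1.39e-10), Hrg, 3.66-fold below (-1.87 ± 0.09), and Vtn. Vtn had 10.44, 10.49 and 10.40 in ASP, 11.53, 11.58 and 11.54 in CGP, 9.01, 9.31 and 9.14 in ASP+CGP, and 10.81, 10.81 and 10.82 in CON. It was 3.16-fold lower in ASP+CGP than in CON (-1.66 ± 0.07, adjusted p = 3.56e-10), though it was not called in ASP. Kng1, the kininogen gene, which lies 1 protein-coding gene away from Hrg on chromosome 16, had 9.41, 9.54 and 9.38 in ASP, 11.25, 11.41 and 11.27 in CGP, 8.76, 8.97 and 8.85 in ASP+CGP, and 10.42, 10.45 and 10.43 in CON. It fell by 1.57 ± 0.07 in ASP+CGP, and its 4 pools did not overlap. The smallest called falls in ASP+CGP were those of F5, Cfi and Cfb. F5, the cofactor of factor X, had 5.96, 6.22 and 6.13 in ASP, 7.67, 7.93 and 7.72 in CGP, 6.29, 6.38 and 6.26 in ASP+CGP, and 6.70, 6.89 and 7.08 in CON. Its ASP and ASP+CGP arrays did not overlap CON, and the fall of 0.58 ± 0.10 in ASP+CGP was no longer called without CON replicate 3 (-0.48).

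The size of the fall went with the signal level. Over the 13 liver-made genes with a mean signal of 8 or more, all 13 were called lower in ASP+CGP and the median was -1.37, while over the 13 dimmer ones 5 were called and the median was -0.39. In ASP the same sets had medians of -0.99 and -0.59, and in CGP 0.75 and 0.71. All genes tested also shifted with level in ASP+CGP. Their median difference from CON was 0.25 for genes with a CON signal from 6 to 7 and -0.34 from 9 to 10, where the liver-made genes of that level lay between -1.48 and -1.17. The part of the narrower signal range of the ASP+CGP arrays in these differences was not tested. The 8 liver-made genes not called in ASP+CGP were C6, F10, Proc, Mbl1, F13b, C8a, F7 and Mbl2, and C6 (-0.48 ± 0.08) lay nearest to the minimum, which it passed without ASP+CGP replicate 2 (-0.55) or 3 (-0.49) or CON replicate 1 (-0.51). Pros1 (-0.47 ± 0.10, called at -0.55 without ASP+CGP replicate 2) and C2 (-0.39 ± 0.07) were not called either.

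Adding the antagonist to aspartame was read from ASP+CGP against ASP. Here 5 of 38 members were called lower, where 13.3% of all genes tested were, and limma called 0 higher, where 6.55% of all genes were. A positive difference was found in 9 members at an unadjusted p under 0.05. The number was also 9 at an adjusted p under 0.05, and these differences were short of the 1.4-fold minimum. The share called lower (5 of 38) is near that of all genes. The largest difference was that of F3, 2.51-fold lower (-1.33 ± 0.11, adjusted p = 1.44e-07), followed by Vtn, 2.45-fold lower (-1.30 ± 0.07, adjusted p = 5.20e-10). Hrg (-0.61 ± 0.09), Kng1 (-0.58 ± 0.07) and Serpind1 (-0.53 ± 0.07) were the other 3. Hrg lost its call without ASP+CGP replicate 1 (-0.46) and Serpind1 without ASP+CGP replicate 3 (-0.47), and Kng1 (-0.44) and Serpind1 (-0.47) lost theirs under cyclic loess. F2 was called lower without ASP replicate 2 (-0.50), ASP replicate 3 (-0.49) or ASP+CGP replicate 2 (-0.58), and Fgb without ASP+CGP replicate 2 (-0.55). The liver-made median was 0.02, and it joined 2 opposite shifts. Of the 13 liver-made genes with a mean signal of 8 or more, 12 had a negative difference (median -0.42), whereas all 13 dimmer ones had a positive one (median 0.20). All genes tested also shifted with level in this comparison. Their median difference was 0.24 at a CON signal from 6 to 7, 0.04 from 7 to 8, -0.08 from 8 to 9 and -0.14 from 9 to 10.

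The interaction asked whether the aspartame difference was another one with CGP 39551 than without it, as (ASP+CGP minus CGP) minus (ASP minus CON). It was called negative for 23 of 38 members, where 15.5% of all genes tested were, and positive for 0 by limma, where 9.02% of all genes were. The 1 member with a positive value at an unadjusted p under 0.05 was C1qb (0.28 ± 0.09, adjusted p = 0.0175 by limma), short of the 1.4-fold minimum. Of the 23, 21 were liver-made, and the others were F3 and Cfb. The 21 include F13b and Mbl1, which passed the filter only through their CGP mean. Vtn had the lowest value, -2.04 ± 0.10 (adjusted p = 3.78e-10). Its aspartame difference was -2.40 with CGP 39551 and -0.36 without it. Serpind1 followed at -1.70 ± 0.10 (-2.10 with and -0.40 without) and F3 at -1.64 ± 0.16 (-0.57 with and 1.07 without). Hrg (-1.52 ± 0.13) and Kng1 (-1.46 ± 0.10) were next. The liver-made genes without a call were F7, C6, C8a, C8b and Mbl2. C8a and C8b, neighbours on chromosome 4, had -0.28 ± 0.09 and -0.46 ± 0.11. C8b was called without ASP replicate 2, ASP+CGP replicate 2, CGP replicate 3 or CON replicate 3 (-0.55 to -0.49), and both were called under cyclic loess (-0.50 each). Of the 23 calls, 9 were lost at a fold minimum of 1.8, those of F5, F13b, Masp2, Proc and Cfb only there. At the 1.4-fold minimum, 4 did not hold throughout. Mbl1 (-0.51) lost its call after centring on medians (-0.45), without moderation of the variances (adjusted p = 0.0907 by limma) and without any 1 of 5 arrays (-0.48 to -0.37), which were ASP replicate 3, ASP+CGP replicate 2, CGP replicates 1 and 2, and CON replicate 1. Fga (-0.59) lost it as the mean of its probe sets (-0.36), F12 (-0.54) without ASP+CGP replicate 2 (-0.48) or 3 (-0.45), and F10 (-0.53) after centring on medians (-0.48) and without CGP replicate 2 (-0.48) or CON replicate 1 (-0.46). The class medians were -0.77 for the liver-made genes, 0.01 for those with several sources and -0.04 for the vessel-wall and macrophage genes, beside -0.03 over all genes tested. All genes tested also shifted with level here, with a median of 0.25 at a CON signal from 6 to 7 and -0.17 from 9 to 10. The 13 liver-made genes with a mean signal of 8 or more had a median of -1.16 (13 called). The 13 dimmer ones had -0.53 (8 called).

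**Figure D4:**
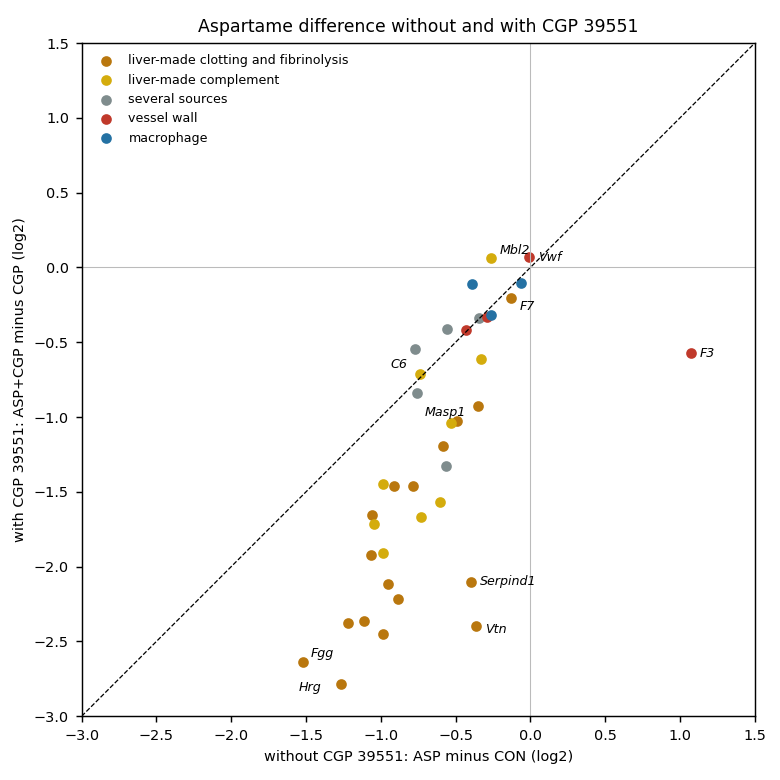
Aspartame difference of each gene without CGP 39551 (ASP minus CON, horizontal axis) and with it (ASP+CGP minus CGP, vertical axis), both in log2 units and each 1 point per gene, with the dashed line marking equal differences. Most liver-made genes lie below the line, and Vtn (-0.36 and -2.40), Serpind1 (-0.40 and -2.10) and F3 (1.07 and -0.57) lie farthest from it.

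Cell markers outside the list moved beside these classes. Of 13 hepatocyte markers, 11 were called lower in ASP (median -1.16), 10 higher in CGP (median 0.69) and 12 lower in ASP+CGP (median -1.54), where 8.13%, 1.62% and 8.32% of all genes tested were. The log2 of their summed signal ranged from 14.14 to 14.15 in ASP, 15.57 to 15.61 in CGP, 13.72 to 13.83 in ASP+CGP and 15.01 to 15.06 in CON. For the 26 liver-made members the same sums were 12.72 to 12.73, 14.32 to 14.41, 12.30 to 12.42 and 13.55 to 13.60, so both sums put the 4 pools in 1 order, from ASP+CGP at the bottom through ASP and CON to CGP. The brightest genes carry these sums. The median over the 26 genes, relative to CON, did not separate the aspartame pools (-0.89 to -0.83 on the ASP arrays and -0.93 to -0.80 on the ASP+CGP arrays), and the summed signal of the 9 liver-made complement genes was higher in ASP+CGP (10.24 to 10.34) than in ASP (10.15 to 10.20). The part of hepatocyte RNA in the differences of the liver-made members was not tested. Of 10 endothelial markers, 7 were called lower in ASP (median -0.50), none in CGP and 2 in ASP+CGP (median -0.39), where 8.13%, 0.0189% and 8.32% of all genes tested were. The CGP count was thus near that of all genes and the ASP+CGP count not far from it. The summed signals of these markers were 13.28 to 13.33 in ASP, 13.76 to 13.81 in CGP, 13.38 to 13.49 in ASP+CGP and 13.75 to 13.79 in CON. Of 9 macrophage markers, 4 were called lower in ASP (median -0.38), among them Adgre1 (-0.52), and none in CGP or ASP+CGP, against the same shares of all genes. For these markers, none in CGP or ASP+CGP is near the share of all genes. Their summed signals were 12.26 to 12.31 in ASP, 12.68 to 12.78 in CGP, 12.48 to 12.51 in ASP+CGP and 12.61 to 12.72 in CON. Otc, which is among the 10 hepatocyte markers called higher in CGP, passed the filter only through its CGP mean. It was under 6 outside CGP, with means of 5.09 in ASP, 6.74 in CGP, 5.31 in ASP+CGP and 5.56 in CON. The macrophage marker Aif1 was under 6 in all 4 pools and was not tested.

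**Figure D5:**
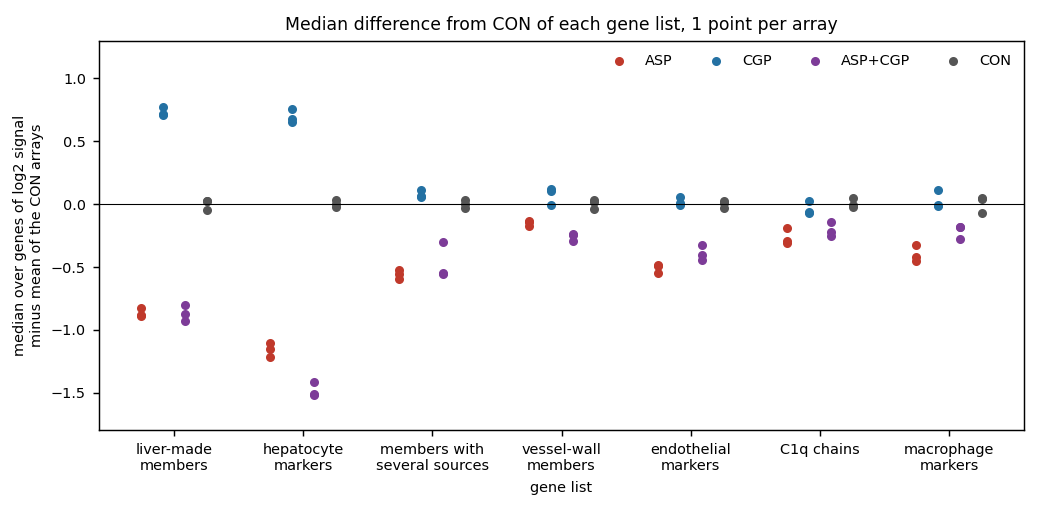
Median over the genes of each list of the log2 signal minus the mean of the CON arrays, 1 point per array, coloured by pool. Liver-made members (26 genes) and hepatocyte markers (13 genes) separate CGP above CON and both aspartame pools below it, while the vessel-wall members, C1q chains and their markers stay within about 0.6 of CON.

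The rest of the 2 pathways moved less. Of 20 other clotting and fibrinolysis genes, 6 were called lower in ASP (median -0.40), 1 higher in CGP and 2 lower in ASP+CGP, where 8.13%, 1.62% and 8.32% of all genes tested were. The ASP+CGP count was thus near that of all genes. The gene higher in CGP was Habp2, a hyaluronan-binding plasma protease made by the liver (0.85). Procr, the endothelial receptor of protein C, was lowest in both aspartame pools (-0.97 in ASP and -0.58 in ASP+CGP) and differed by 0.11 in CGP. Of 23 other complement genes, 8 were called lower in ASP (median -0.41), 2 higher in CGP and 3 lower in ASP+CGP, against the same shares of all genes, and the ASP+CGP count was again not far from that of all genes. The 8 include Vsig4, which passed the filter only through its CGP mean. Its means were under 6 in both pools compared, at 5.33 in ASP and 5.996 in CON. The 2 genes higher in CGP were Hc, the gene of complement C5 (0.94), and C4bp, which encodes the C4b-binding protein (0.90). Hc fell by 0.82 in ASP and 0.64 in ASP+CGP, and C4bp by 0.94 and 0.97, so these 2 genes of liver-made plasma proteins were, like most liver-made members, lower in both aspartame pools and higher in CGP.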

How the data were processed

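The authors deposited RMA values from Partek, that is, background-corrected, quantile-normalised and median-polished log2 signals for each probe set. Their methods state that values below 6 were filtered out, and all 26533 probe sets of the table reach 6 on some array. RNA of a group was pooled before hybridisation. Of these, 17710 name 1 gene, 1077 name several and 7746 name none. Each of 16244 genes was taken at its brightest single-gene probe set, 344 genes that stayed under a mean of 6 in all groups were dropped, and 15900 were tested.

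Group means were estimated over all 12 arrays with limma 3.58.1 (R 4.3.3, tables read with the data.table package, version 1.17.8), with empirical Bayes moderation and Benjamini-Hochberg adjustment within each of 5 contrasts. Calls required at least 1.4-fold together with an adjusted p under 0.05. A fold involving a group mean under 6 is a lower bound, computed with 6 in its place. Errors are standard errors of the fit. The steps were tested on simulated data. The precision is limited by the number of arrays, which have no read depth.

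The members and gene lists were chosen with earlier results of these data known, and the classes follow the main known source of each protein. Values per array are given for the fibrinogen chains, for all members outside the liver-made classes, and for the members highest and lowest in a contrast. Vtn, C6, F7 and Mbl2 were also given so because their calls differed from most of their class. The promoter sequences and gene positions come from RefSeq (GRCm38.p6), matched by symbol. Alternatives covered the filter, scaling, moderation, block, arrays in the fit, choice of probe set, adjustment, fold minimum and each array left out.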

Additional observations from a re-analysis of the deposited data

Results flagged for a closer look

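The aspartame difference was another one with CGP 39551 than without it, by the interaction term of the limma fit, for 23 of the 38 members. Their interaction values, on the log2 scale, were all negative. Among clotting proteases and cofactors they were -1.33 for F2, -0.68 for F5, -0.53 for F10, -0.54 for F12, -0.57 for F13b and -1.64 for F3. For the fibrinogen chains they were -0.59 (Fga), -1.16 (Fgb) and -1.12 (Fgg), and for plasminogen (Plg) -1.25. Among inhibitors and anticoagulants they were -1.16 for Serpinc1, -1.70 for Serpind1, -0.86 for Serpinf2 and -0.61 for Proc. Vtn, Kng1 and Hrg had -2.04, -1.46 and -1.52. Among complement genes they were -0.93 for C8g, -0.94 for C9, -0.96 for Cfi, -0.67 for Masp2, -0.51 for Mbl1 and -0.76 for Cfb. The interaction was called negative for 15.5% of all genes tested. The calls of Mbl1, Fga, F12 and F10 were lost under some settings, that of Mbl1 without moderation, after centring on medians and without any 1 of 5 arrays. Those of F5, F13b, Masp2, Proc and Cfb were lost at a fold minimum of 1.8. The value of F13b and Mbl1 rests on signals near or under 6 in 3 of the 4 pools, and both genes passed the filter only through their CGP mean.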

How the results depend on the processing

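No result turned its direction while called. With the replicate block the counts were those of the fit without it, 24 lower and 1 higher in ASP, 24 higher in CGP, 20 lower in ASP+CGP, 5 lower in ASP+CGP against ASP and 23 negative interactions. The replicate numbers were not taken to pair the arrays, since only 8 of 18 same-numbered pairs had deviations correlated over 0.1 (-0.15 to 0.38, median 0.08), against 9 of 36 other pairs (median -0.07). As a hint from the data, 7 of 12 arrays correlated best with their own number. With a fold minimum of 1.8 the counts fell to 13 lower in ASP, 8 higher in CGP, 2 lower in ASP+CGP against ASP and 14 negative interactions, because that minimum takes fewer genes. In ASP+CGP, 6 of the 20 calls were lost at that minimum. Under cyclic loess 3 members were lower in ASP+CGP against ASP. Of the ASP calls, 4 were lost there (C2, Cfb, F10 and Proc). In ASP+CGP, 1 call was lost (Cfb) and 2 were gained (F13b and Mbl1), and the interaction gained 2 (C8a and C8b). The cause of these changes was not tested. Leaving out each array in turn gave 22 to 25 members lower in ASP, 24 to 24 higher in CGP, 19 to 23 lower in ASP+CGP, 4 to 7 lower and 0 to 1 higher in ASP+CGP against ASP (Mbl2, 0.51 without ASP+CGP replicate 1), and 21 to 24 negative interactions. Of the 190 differences (38 members in 5 contrasts), 31 changed sign in some setting, none of them called.

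Scaling moved the split of all calls. The share called higher was 54.7% in ASP as deposited, 59.3% after centring on medians and 80.1% under cyclic loess. In ASP+CGP it was 42.3%, 70.1% and 57.6%, in ASP+CGP against ASP 32.9%, 43.3% and 19.2%, and for the interaction 36.7%, 47.2% and 23.1%. Cyclic loess moved the median of all genes to 0.01 in ASP and -0.01 in ASP+CGP, against -0.10 and -0.17 as deposited. The 3 arrays of a group share 1 pool, so variation between mice was not measured, and signals near 6 limit F13b, Mbl1 and Cfi.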
